A study of Mus musculus with 2 samples.

Results

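The 76 spots richest in T cell transcripts were described in a collagen-rich mass of 1 mouse cerebellum that carried a transplanted breast tumor. The section was 5 µm thick, fixed and embedded in paraffin, and its spots were read with the Visium CytAssist assay, in which probe pairs ligated on transcripts are counted at fixed positions of an array. A spot entered when it held at least 20000 UMIs (counted molecules) and at least 10000 CPM (UMIs scaled to the same total in every spot) of *Col1a1* plus *Col3a1*, and 754 of the 3406 spots of the section did. The top 10% of these by summed CPM of *Cd3e*, *Cd3d*, *Cd3g* and *Cd2* were called T cell rich, 76 of the 7423 spots of the series. The comparison spots were 121 of the 754 in which no UMI of *Cd3e* was counted. A further spot without *Cd3e* was itself T cell rich through the other 3 genes, and 557 spots belonged to neither group. The spots were chosen by the measured levels of these 4 genes, so those levels describe the choice and nothing rests on them.

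The study transplanted organoids of mouse breast tumors into the cerebellum, and both of its sections carry the genotype HP, a human HER2 V777L transgene with PIK3CA H1047R, and no treatment. The transgene has an actin promoter, the primary tumors were started with Cre-expressing adenovirus in the mammary gland, and the hosts were immunocompetent B6 mice, for which the study's methods give an age of 5 months at injection. Each section is 1 sample, replicate 1 being titled HP-F1 +cre and replicate 2 HP-B6 +cre. No spot of section 2 met the rule, since none of its 1178 spots with 20000 UMIs exceeded 5419.7 CPM of the collagen pair, where the median over the 903 such spots of section 1 was 28497 CPM.

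Spots of 1 section are not replicates, so no test was made and no difference below is said to hold beyond this section. A fold is the pooled CPM of T cell rich spots over that of comparison spots, followed by its exact 95% counting interval, which covers counting error only. A spot can hold several cells of different types, and more T cells in a spot and more RNA in each T cell cannot be told apart.

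T cells recognize peptides on MHC proteins through a receptor whose signal is passed inward by the CD3 chains, which *Cd3e*, *Cd3d* and *Cd3g* encode, while CD2 is an adhesion receptor of T and NK cells. CD4 T cells read MHC class II on antigen-presenting cells, CD8 T cells read MHC class I and can kill the cell that shows it, and regulatory T cells restrain both. Interferon gamma from activated lymphocytes induces MHC genes and the chemokines CXCL9 and CXCL10, which attract T cells that carry CXCR3.

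MHC class II and interferon gamma response genes form 2 of the lists described below, and 4 promoters are shown because they hold short motifs known for these responses. Each line gives the 250 bases before the gene's start, 5′ to 3′ on the strand of the gene, from RefSeq on GRCm38.p6, with 1 motif in capitals. The motifs, searched on both strands, were the Y box CTGATTGG of MHC class II promoters, bound by NF-Y, the gamma-activated site TTCNNNGAA, and the core of the interferon-stimulated element, itself bound by interferon regulatory factors and read on the reverse strand in *Cxcl10*. The window of *Cxcl10* also holds the Y box on the reverse strand, left in lower case.
H2-Aa, chr17:34287824-34288073, minus strand: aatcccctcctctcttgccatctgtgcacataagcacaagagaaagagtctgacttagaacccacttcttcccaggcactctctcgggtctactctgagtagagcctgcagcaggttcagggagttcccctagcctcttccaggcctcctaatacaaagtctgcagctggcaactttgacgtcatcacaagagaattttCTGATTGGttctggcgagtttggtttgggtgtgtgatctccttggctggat
H2-Eb1, chr17:34305617-34305866, plus strand: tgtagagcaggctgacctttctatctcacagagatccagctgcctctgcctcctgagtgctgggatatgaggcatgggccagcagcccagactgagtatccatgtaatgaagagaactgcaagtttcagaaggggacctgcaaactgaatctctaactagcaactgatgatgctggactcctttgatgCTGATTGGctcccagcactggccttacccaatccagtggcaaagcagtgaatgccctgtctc
Irf1, chr11:53769764-53770013, plus strand: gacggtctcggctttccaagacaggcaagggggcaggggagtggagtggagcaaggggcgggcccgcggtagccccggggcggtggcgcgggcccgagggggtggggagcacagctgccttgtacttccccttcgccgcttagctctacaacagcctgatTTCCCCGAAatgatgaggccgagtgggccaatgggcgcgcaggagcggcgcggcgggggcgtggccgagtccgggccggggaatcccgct
Cxcl10, chr5:92348890-92349139, minus strand: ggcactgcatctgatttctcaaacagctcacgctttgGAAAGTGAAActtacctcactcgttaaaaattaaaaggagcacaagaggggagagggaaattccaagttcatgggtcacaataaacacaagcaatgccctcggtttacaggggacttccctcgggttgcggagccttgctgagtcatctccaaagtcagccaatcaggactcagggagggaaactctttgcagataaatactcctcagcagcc
The Y box stood in 3.83% of 32851 windows of this length and in 3 of the 6 MHC class II genes with a window, *H2-Aa*, *H2-Eb1* and *H2-Oa*. The gamma-activated site stood in 7.02% of windows and in 4 of 9 interferon gamma response genes, *Gbp5*, *Gbp7*, *Igtp* and *Irf1*. The interferon-stimulated element stood in 2.98% of windows and in 7 of those 9 genes, *Gbp2*, *Gbp3*, *Gbp5*, *Gbp7*, *Igtp*, *Irgm1* and *Socs1*. The percentages count windows, while a gene was counted when any of its windows held the motif, so the shares are not strictly alike. A match is a run of letters and shows no binding in these spots.

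T cell rich spots held 8 to 33 UMIs of the 4 genes that chose them, with a median of 17. The last spot inside had 268.2 CPM (18 of 67113 UMIs), the first outside 267.0 CPM (18 of 67414 UMIs) and the highest 457.8 CPM (33 of 72081 UMIs), so the spots on either side of the limit held the same number of molecules. *Cd3e* was counted in 75 of the 76 spots, *Cd3g* in 75, *Cd2* in 72 and *Cd3d* in 68. Together the genes stood at 310 CPM in T cell rich spots, 63.9 CPM in comparison spots and 17.7 CPM in the 1611 spots of the section with under 1000 CPM of the collagen pair. At least 1 UMI of them was in 100%, 86.8% and 14.8% of these spots, at median depths of 57603.5, 41042 and 9079 UMIs, and in 77.6%, 36.4% and 9.06% after thinning each spot to 5000 UMIs.

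Depth differed between the groups, and collagen hardly did. T cell rich spots held 23502 to 83366 UMIs and comparison spots 20127 to 75704, pooled to 4186263 and 5161738 UMIs. The collagen pair had medians of 30492 and 30081 CPM. Although the section is labelled a breast tumor, these spots held little epithelial RNA: *Epcam*, an epithelial adhesion protein, stood at 8.84 and 6.39 CPM and *Krt8*, a keratin, at 20.8 and 14.3 CPM in T cell rich and comparison spots. The spots are therefore named by their collagen and T cell genes.

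T cell rich spots lay inside the collagen-rich mass more often than along its border. Their distance to the nearest spot under the collagen minimum was 1 to 18 array steps with a median of 9, where 1 step leads to a neighboring spot and the edges of the tissue and of the array were not counted. Comparison spots lay 1 to 21 steps inside with a median of 3. Within 3 steps of the border were 7 of 76 T cell rich spots and 62 of 121 comparison spots. Of those 7, all but the spot at array row 25 lay together at array rows 39 to 42 and columns 112 to 118. T cell rich values at 1 to 3 steps thus describe mostly 1 place along the border. The share of collagen-rich spots that were T cell rich was 4.43% at 1 to 3 steps, 7.64% at 4 to 6, 17.6% at 7 to 9, 18.7% at 10 to 12 and 7.27% at 13 to 23 steps. The shares at 1 to 6 and at 13 to 23 steps were thus below those at 7 to 12 steps. Since edges of tissue and array were not counted, spots at 13 to 23 steps need not lie in the middle of the mass.

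**Figure D1:**
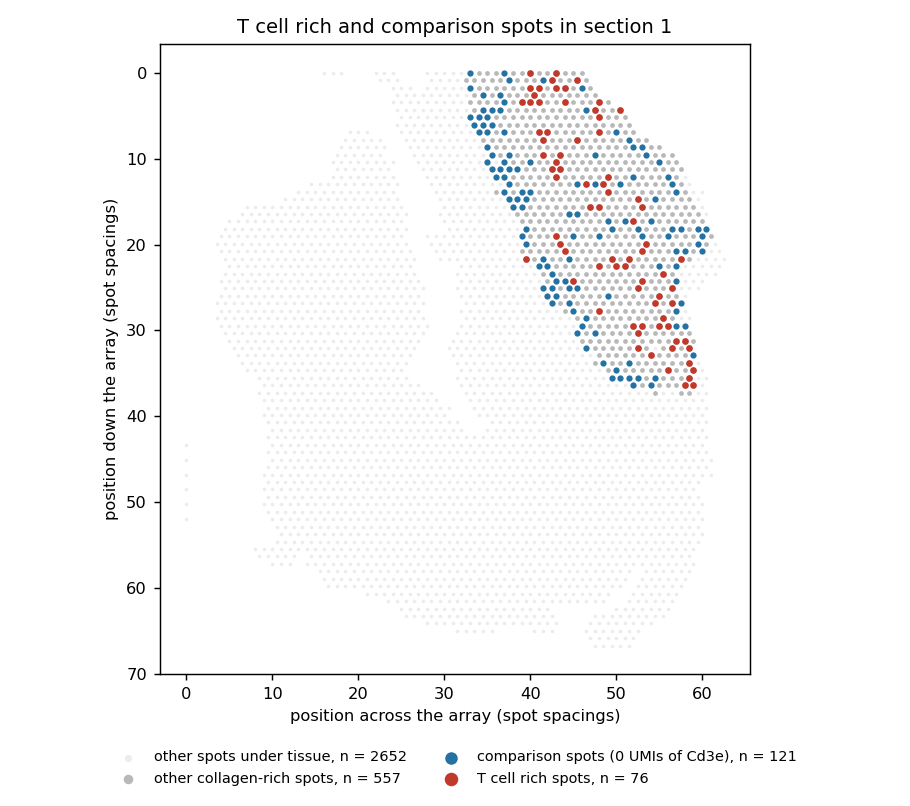
Array positions of the spots of section 1, with the 76 T cell rich spots, the 121 comparison spots and the other collagen-rich spots marked. T cell rich spots are scattered through the collagen-rich mass, and 62 comparison spots lie within 3 steps of its border.

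T cell rich spots formed many small groups. They fell into 37 groups of touching spots, of which 20 were single spots and the largest held 6. Of their collagen-rich neighbors 21.7% were T cell rich, against 10.1% of all collagen-rich spots and 3.8% of the neighbors of comparison spots. Because place differed so much, values are also given with comparison spots weighted to the distances of the T cell rich spots ("distances matched"), and for the 58 T cell rich and 46 comparison spots at least 7 steps from the border ("inside"). Both were chosen after the data were seen. Inside spots still differed in place: 16 of the 58 T cell rich and 32 of the 46 comparison spots lay at 13 to 23 steps. An inside fold can therefore lie outside the folds of its own zones. At 7 to 9 and 10 to 12 steps lay 22 and 20 T cell rich spots but only 7 and 7 comparison spots. Values with distances matched thus lean on few comparison spots there, and carry no interval.

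**Figure D2:**
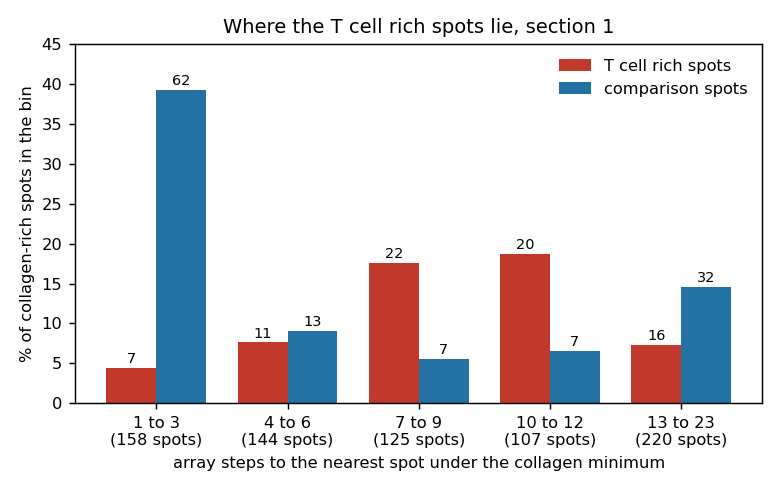
T cell rich and comparison spots by array steps to the nearest spot under the collagen minimum. T cell rich spots took 17.6% and 18.7% of the collagen-rich spots at 7 to 12 steps, while 62 of the 121 comparison spots lay at 1 to 3 steps.

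T cell genes that the rule did not use were higher, as a sum, in T cell rich spots of all 5 zones of distance. Of 10327 genes with at least 10 CPM over the collagen-rich spots, 298 (2.89%) were at least 1.5-fold higher and 336 (3.25%) at least 1.5-fold lower, with a median fold of 1.02. At least 2-fold higher were 74 (0.717%) and 2-fold lower 116 (1.12%). Of 18 such genes of the T cell identity list, 16 were at least 1.5-fold higher and 0 lower, with a median fold of 2.16. The rule used this contrast, so nothing is read from these shares. The summed list stood at 748 and 404 CPM, 1.85-fold (1.75 to 1.96). It was 1.49-fold with distances matched, where 10 genes passed 1.5-fold against 2.95% of all genes, and 1.49-fold (1.38 to 1.6) inside, where 8 did against 4.79%. By zone the sum was 2.90-fold (2.48 to 3.37) higher at 1 to 3 steps, 1.88-fold (1.62 to 2.18) at 4 to 6, 1.45-fold (1.23 to 1.71) at 7 to 9, 1.2-fold (1.04 to 1.39) at 10 to 12 and 1.49-fold (1.32 to 1.67) at 13 to 23 steps. Counts of higher genes in later lists stand beside the same shares: 2.89% over all spots, 2.95% with distances matched and 4.79% inside. For lower genes the shares were 3.25%, 1.38% and 2.58%.

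The receptor itself was counted in every T cell rich spot. *Trac*, the constant part of the alpha chain, ranged from 17.1 to 193 CPM in T cell rich spots, with a median of 86.7 CPM, and from 0 to 197 CPM in comparison spots, with a median of 26.9 CPM. The groups overlapped, and 79 of 121 comparison spots held a UMI of it. Pooled, *Trac* was 2.30-fold (1.93 to 2.75) higher, and 1.46-fold with distances matched. *Trbc1* and *Trbc2*, the constant parts of the beta chain, were 2.21-fold (1.69 to 2.91) and 2.77-fold (2.26 to 3.40) higher, and 1.67-fold and 1.80-fold inside, with the reservation that probes may not tell these near-identical copies apart. *Trdc*, of the delta chain of gamma delta T cells, stood at 26.5 and 27.7 CPM, 0.957-fold (0.740 to 1.24). Comparison spots within 3 steps of the border held 90 of their 143 UMIs of *Trdc*, and inside it was 3.04-fold (1.82 to 5.36) higher. At 7 to 9, 10 to 12 and 13 to 23 steps *Trdc* stood at 37.2, 26.99 and 8.43 CPM in T cell rich spots. Comparison spots there held 23.6, 13.97 and 3.66 CPM, from only 8, 5 and 5 UMIs. *Trdc* was thus higher in each inside zone, but none reached the pooled 3.04-fold, whose groups differed in place.

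CD4 and CD8 transcripts were each counted in most T cell rich spots. *Cd4*, the co-receptor for MHC class II, which macrophages can carry too, had medians of 40.8 and 0 CPM in T cell rich and comparison spots. Pooled it was 2.51-fold (1.98 to 3.21) higher, 1.72-fold with distances matched and 1.40-fold (1.05 to 1.87) inside. *Cd8a*, of the co-receptor for MHC class I, had medians of 27.2 and 0 CPM and was 2.40-fold (1.75 to 3.34) higher, 2.24-fold with distances matched. In the 76 T cell rich spots *Cd4* was counted in 72, *Cd8a* in 54, both in 51 and neither in 1. Genes counted in so many spots must overlap, so here and below shared spots are not read as a link. *Cd8a* was counted in 71.1% of T cell rich, 34.7% of comparison and 3.41% of low-collagen spots, or 13.2%, 6.61% and 1.49% after thinning.

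Genes that carry the receptor's signal were higher over all spots, and most fell short of the 1.5-fold limit inside. *Lck* and *Zap70*, the kinases of its first steps, were 1.79-fold (1.40 to 2.31) and 2.39-fold (1.74 to 3.30) higher, and the adaptor *Lat* 2.00-fold (1.56 to 2.56). With distances matched they were 1.45-fold, 1.54-fold and 1.30-fold, and inside 1.41-fold (1.03 to 1.95), 1.49-fold (1.02 to 2.21) and 1.29-fold (0.961 to 1.74). Of the 11 genes of the signaling list, 7 were at least 1.5-fold higher over all spots, 4 with distances matched and 1 inside, *Rasgrp1*. The sum was 1.5-fold (1.43 to 1.58), 1.24-fold with distances matched and 1.28-fold (1.19 to 1.37) inside. The members below 1.5-fold over all spots, *Lcp2*, *Fyn*, *Vav1* and *Plcg1*, are used by other blood cells too, and lay at 1.19-fold to 1.31-fold.

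**Figure D3:**
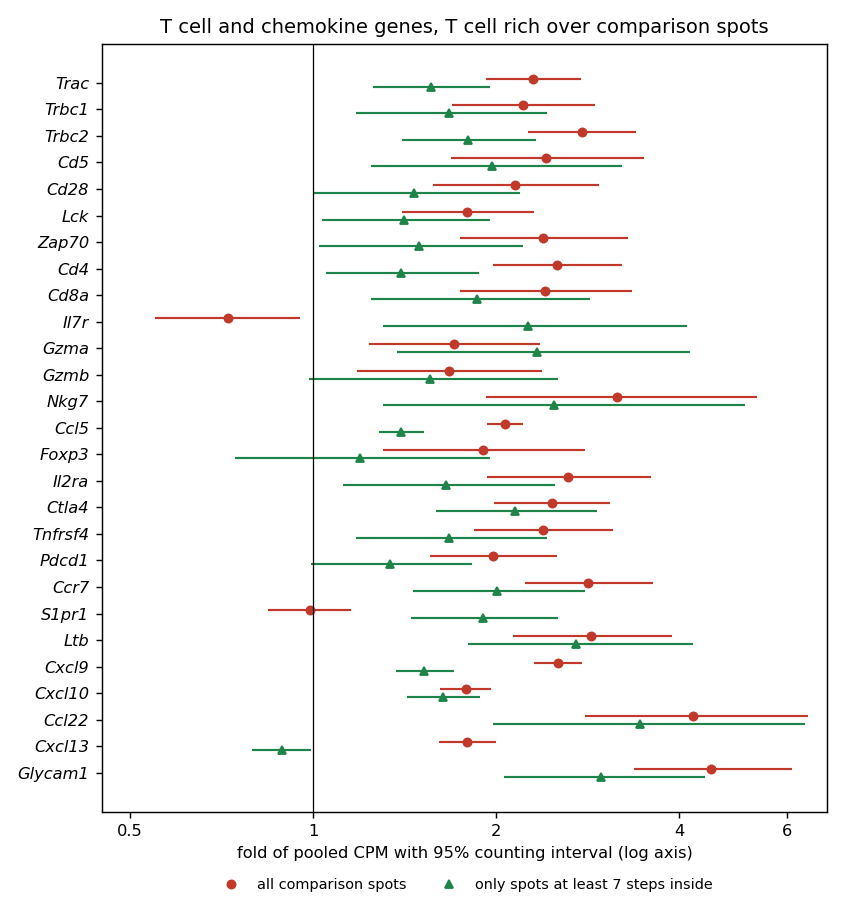
Fold of pooled CPM, T cell rich over comparison spots, on a log axis with 95% counting intervals, for named genes over all spots and over the spots at least 7 steps inside. Most T cell genes stand above 1 in both, and *Il7r* passes from 0.725-fold to 2.26-fold.

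Genes of killer lymphocytes were higher too. Of 8 genes of the cytotoxic list, 7 were at least 1.5-fold higher, 7 with distances matched and 5 inside, against 2.89%, 2.95% and 4.79% of all genes. The sum stood at 764 and 389 CPM, 1.96-fold (1.86 to 2.08), and was 1.46-fold with distances matched. Most of it was *Ccl5*, a chemokine of effector T cells, which ranged from 236 to 1011 CPM in T cell rich spots, with a median of 506 CPM, and from 0 to 804 CPM in comparison spots, with a median of 222 CPM.

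*Ccl5* was 2.07-fold (1.93 to 2.21) higher, and 1.40-fold with distances matched and 1.40-fold (1.28 to 1.52) inside. Less abundant granule genes were higher too. *Nkg7*, a granule protein, was 3.16-fold (1.92 to 5.37) higher, and the granzymes *Gzma* and *Gzmb*, proteases that kill target cells, 1.70-fold (1.23 to 2.36) and 1.67-fold (1.18 to 2.38). *Prf1*, which forms the pore they pass, had 44 and 32 UMIs and *Ifng* 16 and 15 UMIs, both under the 10 CPM minimum. The granzymes were not higher in every zone. At 7 to 9 steps *Gzma* and *Gzmb* stood at 16.0 and 13.1 CPM in T cell rich and 20.7 and 17.7 CPM in comparison spots. *Gzmb* was about level at 4 to 6 steps, at 14.1 and 14.4 CPM. In the remaining zones each was higher, but comparison spots at 10 to 12 steps held only 2 UMIs of each. NK cells left few counts: *Ncr1*, their defining receptor, had 8 and 4 UMIs, no gene of the 7 on that list reached the minimum, and its sum was 1.45-fold (1.10 to 1.91). Whether NK cells added to the cytotoxic genes was not tested.

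Regulatory T cell genes were higher, most of all near the border. All 6 genes of the list above the minimum were at least 1.5-fold higher, 3 with distances matched, and the sum stood at 226 and 106 CPM, 2.13-fold (1.92 to 2.37). *Foxp3*, the factor that defines these cells, stood at 17.7 and 9.30 CPM, 1.90-fold (1.30 to 2.79), but 1.13-fold with distances matched and 1.2-fold (0.745 to 1.96) inside. At 7 to 9 and 10 to 12 steps *Foxp3* was lower in T cell rich spots, at 21.9 and 12.7 CPM against 26.6 and 16.8 CPM. In the other zones it was higher. *Ctla4*, a receptor that dampens activation, was 2.47-fold (1.98 to 3.08) higher and kept 1.95-fold with distances matched.

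*Il2ra*, of the interleukin 2 receptor, and *Tnfrsf4*, a co-stimulatory receptor, were 2.62-fold (1.93 to 3.60) and 2.38-fold (1.84 to 3.11) higher, and 1.66-fold and 1.67-fold inside. From the border inward the summed list stood at 478, 207, 236, 222 and 157 CPM in T cell rich spots. The 7 spots nearest the border thus had the highest level, with 12 of the 74 UMIs of *Foxp3*. *Foxp3* was counted in 41 T cell rich spots, of which 29 also held *Cd8a*, a gene counted in 54 of the 76.

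Receptors of T cell restraint were higher over all spots and their ligands mostly level. Of 5 checkpoint genes 3 were at least 1.5-fold higher, 2 with distances matched and 1 inside. *Pdcd1*, encoding PD-1, was 1.97-fold (1.55 to 2.51) higher, 1.95-fold with distances matched and 1.34-fold (0.992 to 1.82) inside. *Lag3* was 1.96-fold (1.36 to 2.84) higher, 1.28-fold with distances matched and 1.18-fold (0.745 to 1.89) inside. *Havcr2*, encoding TIM-3, which macrophages also carry, was 1.12-fold (0.990 to 1.26). Of 7 ligands 2 passed 1.5-fold, *Cd80* and *Cd86*, the partners of CD28 and CTLA-4, at 1.58-fold (1.22 to 2.05) and 1.54-fold (1.28 to 1.84). Neither did at the other settings, with 1.44-fold and 1.44-fold at matched distances and 1.23-fold (0.876 to 1.74) and 1.02-fold (0.821 to 1.28) inside. *Cd274*, encoding PD-L1, stood at 62.8 and 63.7 CPM, 0.986-fold (0.835 to 1.16), but was 1.21-fold with distances matched and 1.40-fold (1.08 to 1.83) inside.

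Genes of naive and memory T cells were split by place. *Ccr7*, the chemokine receptor of naive T cells and mature dendritic cells, had medians of 39.2 and 0 CPM and was 2.83-fold (2.23 to 3.61) higher. *Il7r*, the interleukin 7 receptor, and *S1pr1*, which guides T cells out of tissue, stood at 0.725-fold (0.550 to 0.951) and 0.988-fold (0.843 to 1.16) over all spots, and at 2.26-fold (1.30 to 4.11) and 1.90-fold (1.45 to 2.52) inside. From the border inward *S1pr1* stood at 103, 77.7, 87.5, 65.8 and 28.9 CPM against 98.8, 80.5, 17.7, 47.5 and 35.2 CPM. Near the border, spots without a UMI of *Cd3e* thus held about as much of it. Which cells held *S1pr1* was not tested. Comparison spots at 7 to 9 steps held only 6 UMIs of *S1pr1* and 3 of *Il7r*, and those at 10 to 12 steps 2 of *Il7r*. Inside, 7 of the 8 genes of the list were at least 1.5-fold higher, against 5 over all spots. The summed list was 2.41-fold (1.77 to 3.35) at 7 to 9 steps, where only 7 comparison spots lay. At 10 to 12 and 13 to 23 steps it was 1.08-fold (0.839 to 1.39) and 1.15-fold (0.928 to 1.42), with intervals that included 1.

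Few cytokine genes could be read. *Ltb*, encoding lymphotoxin beta, which shapes lymphoid tissue, was 2.86-fold (2.13 to 3.89) higher, and 2.64-fold with distances matched. *Tnf* was 1.27-fold (0.881 to 1.84) over all spots, 1.74-fold with distances matched and 1.76-fold (1.01 to 3.19) inside. The other 9 cytokines of the list, *Il2*, *Il4*, *Il10* and *Il17a* among them, were under the 10 CPM minimum, so a difference in them was not detectable at this depth.

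Chemokines that attract T cells were higher. *Cxcl9* ranged from 42.5 to 1104 CPM in T cell rich spots, with a median of 305 CPM, and from 0 to 466 CPM in comparison spots, with a median of 98.0 CPM. It was 2.52-fold (2.31 to 2.76) higher, 1.56-fold with distances matched and 1.52-fold (1.37 to 1.70) inside. At 1 to 3 steps it stood at 706 CPM in the 7 T cell rich spots, mostly from 1 place, and 51.6 CPM in comparison spots. *Cxcl10*, whose promoter is shown above, was 1.78-fold (1.62 to 1.96) higher, 1.62-fold with distances matched. Their receptor *Cxcr3* had 32 and 19 UMIs.

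*Ccl22*, made by mature dendritic cells and bound by CCR4 of regulatory T cells, had the highest fold of the chemokine list. It stood at 25.3 and 6.01 CPM, 4.22-fold (2.80 to 6.51), and was 2.35-fold with distances matched and 3.45-fold (1.98 to 6.43) inside. It was counted in 49 of the 76 T cell rich spots, of which 46 held *Ccr7* and 27 *Foxp3*, genes counted in 65 and 41 of the 76. *Cxcl13*, which attracts B cells, was 1.79-fold (1.61 to 2.00) over all spots, 1.2-fold with distances matched and 0.888-fold (0.795 to 0.993) inside. From the border inward it stood at 12.9, 44.1, 135, 267 and 342 CPM in T cell rich spots. It rose inward in comparison spots too, at 5.73, 9.61, 148, 229 and 298 CPM. *Cxcl12* and its receptor *Cxcr4* were level at 0.994-fold (0.917 to 1.08) and 1.0-fold (0.901 to 1.11).

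*Glycam1*, a mucin of lymph node vessels that mammary epithelium also makes, stood out among genes of lymphocyte entry. It stood at 51.6 and 11.4 CPM, 4.51-fold (3.37 to 6.13), was 2.24-fold with distances matched and 2.97-fold (2.06 to 4.41) inside, and was counted in 46 of 76 and 29 of 121 spots. From the border inward it stood at 8.60, 75.9, 72.2, 51.5 and 13.2 CPM in T cell rich spots, highest in the middle zones. Comparison spots held 4.41, 16.8, 11.8, 53.1 and 8.80 CPM, so the groups were level at 10 to 12 steps. *Icam1*, an adhesion protein that binds lymphocytes, was 1.65-fold (1.39 to 1.98) over all spots and 1.32-fold with distances matched. *Vcam1*, another such protein, was 1.18-fold (1.10 to 1.27) over all spots and 0.849-fold (0.781 to 0.923) inside. The vessel selectins *Sele* and *Selp* had 9 and 11 UMIs and 17 and 11 UMIs.

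MHC class II genes were higher over all spots, less so with distances matched, and nearly level inside. All 9 genes of the list were at least 1.5-fold higher, at 1.67-fold to 1.95-fold, but 0 with distances matched. *Cd74*, which escorts class II proteins, ranged from 4680.4 to 22949.7 CPM in T cell rich spots, with a median of 15237 CPM, and from 922 to 23943 CPM in comparison spots, with a median of 4771 CPM. *H2-Aa*, an alpha chain of class II, was 1.81-fold (1.78 to 1.84) higher, 1.2-fold with distances matched and 1.01-fold (0.989 to 1.03) inside.

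The difference in class II lay near the border. The summed list was 4.23-fold (4.09 to 4.37) higher at 1 to 3 steps (22345 against 5286 CPM), 2.16-fold (2.1 to 2.22) at 4 to 6 steps, 1.08-fold (1.06 to 1.11) at 7 to 9, 1.08-fold (1.06 to 1.11) at 10 to 12 and 0.992-fold (0.976 to 1.01) at 13 to 23 steps (28827 against 29065 CPM). Comparison spots at 13 to 23 steps thus held as much class II RNA as T cell rich spots there. Of the 7 T cell rich spots at 1 to 3 steps, those at array rows 39 to 42 held 22264 to 25711 CPM. The remaining spot, at row 25, held 8978 CPM. With comparison spots weighted to the depth of the T cell rich spots the sum was 1.53-fold. The 10 MHC class I genes stood at 1.15-fold to 1.5-fold, and 0 of them passed the limit, the highest, of the peptide transporter *Tap2*, falling just short of it.

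**Figure D4:**
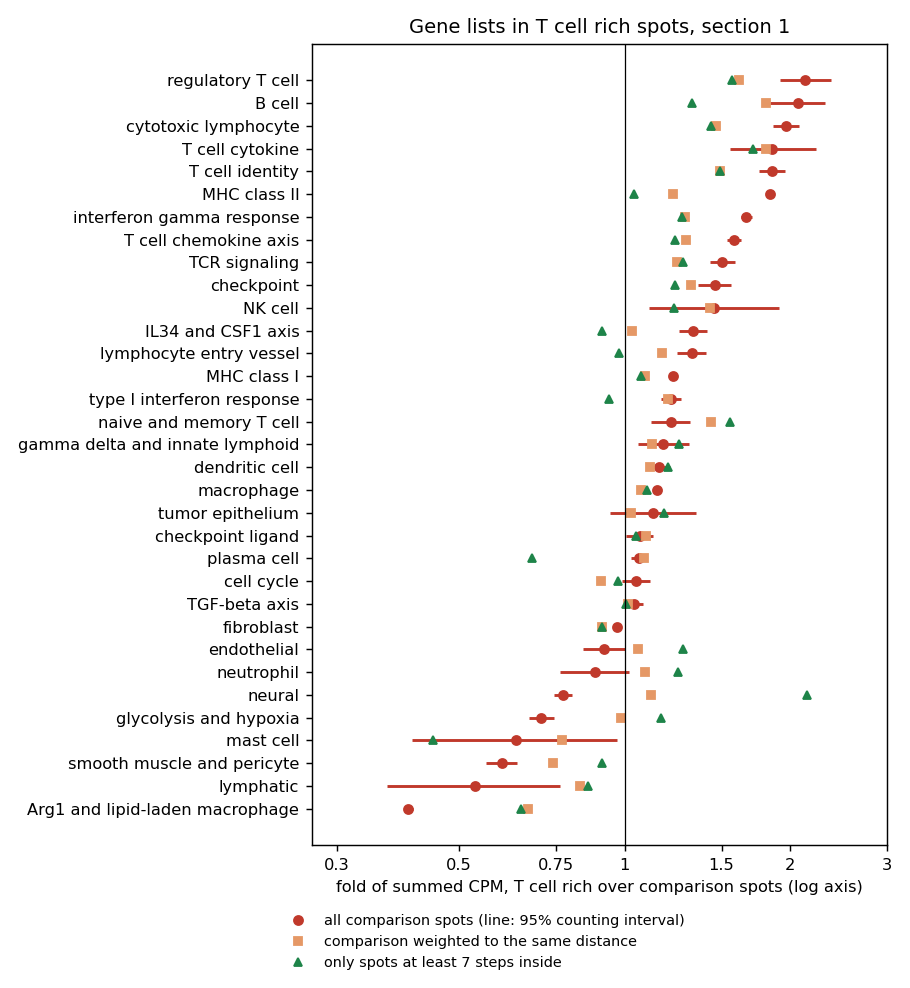
Fold of the summed CPM of the 33 gene lists, T cell rich over comparison spots, on a log axis, over all spots with 95% counting intervals, with distances matched, and at least 7 steps inside. The T cell identity list stays at 1.49-fold in both of the latter, and MHC class II comes to 1.22-fold and 1.04-fold.

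Genes induced by interferon gamma were higher with T cell genes, less so inside. Of 12 genes 8 were at least 1.5-fold higher, and 2 with distances matched, *Cxcl9* and *Gbp4*. *Gbp4*, a guanylate-binding protein of host defense, stood at 225 and 108 CPM, 2.07-fold (1.87 to 2.31), and was 1.48-fold (1.29 to 1.70) inside. *Irf1*, a factor of this response whose promoter is shown above, stood at 310.3 and 213 CPM, 1.46-fold (1.34 to 1.58). The sum was 1.66-fold (1.62 to 1.70), 1.28-fold with distances matched and 1.27-fold (1.23 to 1.31) inside. The type I interferon list was 1.21-fold (1.16 to 1.26) over all spots and 0.935-fold (0.888 to 0.985) inside, with 0 of 8 genes at least 1.5-fold higher. At 7 to 9, 10 to 12 and 13 to 23 steps it was 1.24-fold, 1.06-fold and 1.04-fold. The intervals at 10 to 12 and 13 to 23 steps included 1. No inside zone was thus lower in T cell rich spots, and the pooled inside groups differed in place.

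B cell genes were higher, with much of the signal in few spots. Of 6 genes 4 were at least 1.5-fold higher, and the sum stood at 191 and 92.6 CPM, 2.06-fold (1.84 to 2.32), 1.81-fold with distances matched and 1.33-fold (1.16 to 1.51) inside. *Cd79a*, of the B cell receptor, was 2.91-fold (2.21 to 3.86) higher and *Ms4a1*, encoding CD20, 2.70-fold (1.74 to 4.28), while inside they were 1.62-fold (1.21 to 2.20) and 1.33-fold (0.834 to 2.15). The 5 richest spots held 27.3% of the 800 UMIs of the list in T cell rich spots, and without them the sum was 1.62-fold. From the border inward the list stood at 68.8, 79.4, 110.1, 283 and 304 CPM in T cell rich spots, and at 50.7, 28.8, 109, 112 and 192 CPM in comparison spots. *Ms4a1* was counted in 34 T cell rich spots, of which 33 held *Cd4*, a gene counted in 72 of the 76.

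Antibody genes did not stand out as a group. Of 8 plasma cell genes 2 were at least 1.5-fold higher and 1 lower, and the sum was 1.06-fold (1.03 to 1.10) over all spots and 0.678-fold (0.653 to 0.704) inside. At 7 to 9, 10 to 12 and 13 to 23 steps it was 1.04-fold (0.930 to 1.16), 1.62-fold (1.46 to 1.80) and 0.758-fold (0.720 to 0.799). *Igkc*, the constant part of the kappa chain, was 1.19-fold (1.13 to 1.25) over all spots and 0.583-fold (0.552 to 0.616) inside. In those 3 zones it stood at 452, 708 and 1253 CPM in T cell rich and 528, 332 and 1694 CPM in comparison spots. *Iglc1*, of a lambda chain, had the highest fold outside the lists, 8.05-fold (6.01 to 11.0), was 5.05-fold (3.64 to 7.16) inside, and 2 spots held 47.7% of its 346 UMIs. *Igkv8-27*, a kappa variable segment, was 5.11-fold (3.34 to 8.10) higher, and 2.76-fold (1.76 to 4.5) inside, with 67.0% of 112 UMIs in 2 spots. Antibody segments resemble each other, so a probe may bind more than 1 of them.

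The other 8 genes with the highest folds outside the lists were spread over more spots. *Ikzf3*, a factor of lymphocytes, was 2.68-fold (2.07 to 3.49) higher, *Ptprcap*, a partner of CD45, 2.59-fold (2.01 to 3.35), and *Gimap7*, a lymphocyte GTPase, 2.56-fold (1.88 to 3.52), and they were counted in 59 to 65 of 76 spots. Inside they were 1.80-fold (1.31 to 2.51), 1.62-fold (1.19 to 2.24) and 1.70-fold (1.16 to 2.53). *Serpina3g*, a protease inhibitor, stood at 189.7 and 73.8 CPM, 2.57-fold (2.27 to 2.91), and *C3*, the central complement protein, at 462 and 185 CPM, 2.50-fold (2.31 to 2.71), and with distances matched they were 1.91-fold and 1.59-fold. The alpha chain joining segments *Traj7* and *Traj20*, near relatives of other segments, were 2.57-fold (1.70 to 3.97) and 2.53-fold (1.68 to 3.89) higher, but inside, at 1.6-fold (0.967 to 2.75) and 1.55-fold (0.931 to 2.66), their intervals reached below 1. *Arl5c* was 2.50-fold (1.62 to 3.95) higher, and 2.43-fold (1.31 to 4.87) inside.

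Macrophage genes differed little, apart from those of *Arg1* and lipid-laden macrophages, which were lower. Of 11 macrophage genes 0 were at least 1.5-fold higher and 1 lower, *Cd68*, and the sum was 1.14-fold (1.13 to 1.16). Of the 7 genes of the *Arg1* list 6 were at least 1.5-fold lower, and 5 with distances matched, where 1.38% of all genes were. Inside, 1 of them was, against 2.58% of all genes. *Arg1*, the arginase that breaks down arginine, ranged from 0 to 596 CPM in T cell rich spots, with a median of 14.5 CPM, and from 0 to 3270.3 CPM in comparison spots, with a median of 243 CPM. At 1 to 3 steps it stood at 81.7 CPM in T cell rich and 922 CPM in comparison spots. In the 4 zones further in, *Arg1* stood at 154, 13.9, 11.0 and 4.82 CPM against 113, 26.6, 8.38 and 6.60 CPM. It was thus higher in T cell rich spots at 4 to 6 and 10 to 12 steps and lower in the other zones. It was 0.0794-fold (0.0665 to 0.0941) over all spots, 0.355-fold with distances matched and 1.04-fold (0.593 to 1.88) inside. *Spp1*, encoding osteopontin, was 0.465-fold (0.457 to 0.474) over all spots, 0.694-fold with distances matched and 0.609-fold (0.595 to 0.625) inside. At 7 to 9, 10 to 12 and 13 to 23 steps it stood at 2907.5, 3548 and 5421 CPM against 4361, 3522 and 7283 CPM.

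**Figure D5:**
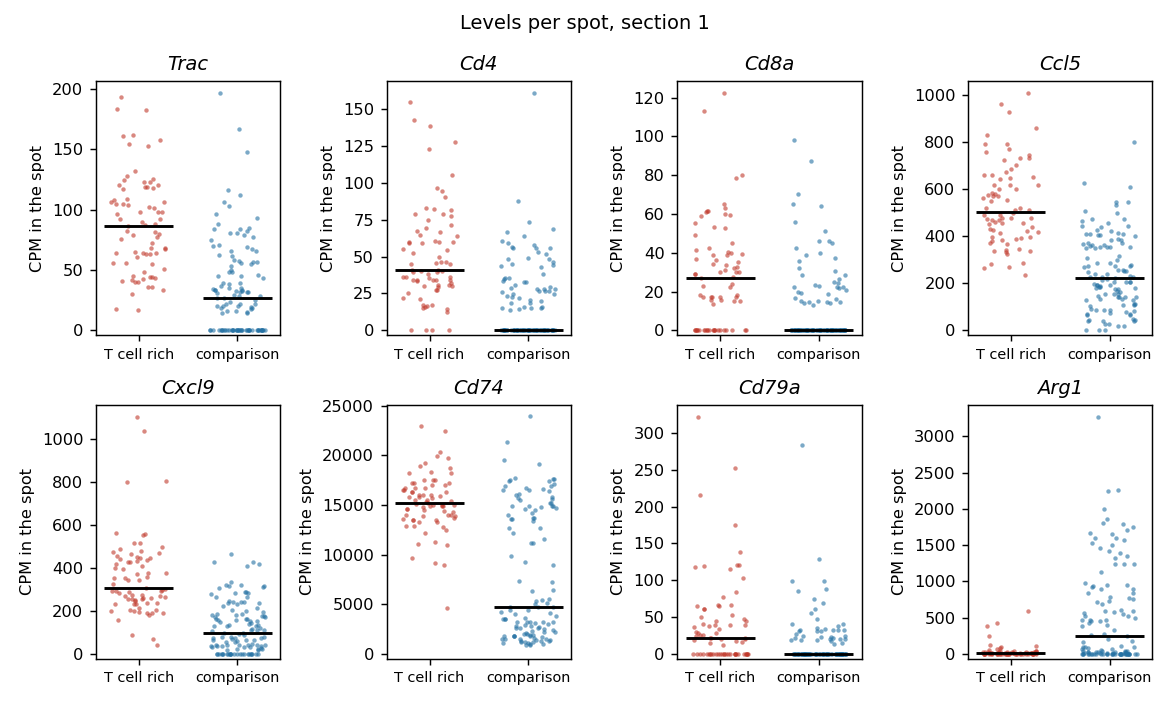
CPM of named genes in each of the 76 T cell rich and 121 comparison spots, with bars at the medians. The groups overlap for every gene, with median *Trac* at 86.7 and 26.9 CPM and median *Arg1* at 14.5 and 243 CPM.

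The 10 genes with the lowest folds outside the lists include myelin genes, and away from the border their folds lay nearer to 1 or above it. *Mobp*, *Mag* and *Bcas1*, of myelin and the cells that make it, were 0.163-fold (0.130 to 0.202), 0.172-fold (0.120 to 0.241) and 0.195-fold (0.133 to 0.280) over all spots. They were 0.563-fold, 0.466-fold and 0.655-fold with distances matched, and 1.27-fold (0.757 to 2.19), 0.933-fold (0.466 to 1.92) and 1.74-fold (0.706 to 4.87) inside. *Mmp12*, a macrophage elastase, was 0.103-fold (0.0798 to 0.131), 0.434-fold with distances matched and 2.1-fold (1.05 to 4.56) inside. *Klk6* was 0.126-fold (0.0919 to 0.170), the coagulation factors *F10* and *F7* 0.157-fold (0.0934 to 0.251) and 0.175-fold (0.104 to 0.280), and *Pi15*, *Rnf128* and *Ibsp* 0.113-fold (0.0603 to 0.195), 0.156-fold (0.0952 to 0.244) and 0.194-fold (0.113 to 0.316). With distances matched these 6 genes were 0.378-fold, 0.366-fold, 0.522-fold, 0.361-fold, 0.431-fold and 0.397-fold. Inside they were 0.771-fold (0.371 to 1.63), 0.719-fold (0.297 to 1.77), 0.989-fold (0.380 to 2.75), 0.478-fold (0.196 to 1.13), 0.879-fold (0.348 to 2.33) and 0.947-fold (0.382 to 2.48), with intervals that all included 1. The neural list passed from 0.772-fold (0.744 to 0.800) over all spots to 1.11-fold with distances matched and 2.15-fold (1.99 to 2.31) inside. *Gfap*, of astrocytes, was 2.40-fold (2.20 to 2.61) inside. At 7 to 9, 10 to 12 and 13 to 23 steps the neural list was 1.85-fold, 0.656-fold and 1.26-fold. No inside zone thus reached the 2.15-fold of the pooled inside spots, whose groups differed in place. In those 3 zones the list stood at 1503, 854 and 153 CPM in T cell rich spots. Comparison spots there held 814, 1302 and 121 CPM. The part of brain RNA in the other results was not tested.

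The sums of the fibroblast, endothelial and cell cycle lists lay near 1 over all spots, while single genes of the first ranged widely. The fibroblast sum was 0.969-fold (0.961 to 0.976), and its 10 genes lay at 0.338-fold to 1.66-fold, with 1 at least 1.5-fold higher, *Lum*, and 2 lower, *Pdpn* and *Col6a3*. With distances matched 0 of them were higher and 0 lower. The endothelial list was 0.917-fold (0.838 to 1.0) over all spots and 1.27-fold (1.11 to 1.47) inside. It went both ways by zone, at 1.41-fold (1.06 to 1.89), 0.779-fold (0.587 to 1.04) and 1.09-fold (0.850 to 1.39) at 7 to 9, 10 to 12 and 13 to 23 steps. The cell cycle list was 1.05-fold (0.987 to 1.11), with *Mki67*, a marker of dividing cells, at 165 and 145 CPM. The smooth muscle and pericyte list was 0.598-fold (0.560 to 0.638) over all spots, with *Acta2*, smooth muscle actin, at 37.5 and 201 CPM, and 0.910-fold (0.828 to 1.0) inside. The list of glycolysis and hypoxia was 0.705-fold (0.668 to 0.744) over all spots, 0.984-fold with distances matched and 1.17-fold (1.07 to 1.27) inside. At 7 to 9, 10 to 12 and 13 to 23 steps it was 1.04-fold, 1.01-fold and 1.04-fold, with intervals that included 1. No inside zone thus reached the 1.17-fold of the pooled inside spots, whose groups differed in place.

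Dendritic cell genes were 1.15-fold (1.10 to 1.21), the TGF-beta list 1.04-fold (1.0 to 1.08) and the IL34 and CSF1 list 1.33-fold (1.25 to 1.41), which was 1.03-fold with distances matched and 0.908-fold (0.845 to 0.975) inside. The lists of gamma delta and innate lymphoid cells and of epithelium were 1.18-fold (1.06 to 1.31) and 1.12-fold (0.939 to 1.35). The lists of neutrophils, mast cells and lymphatics were 0.881-fold (0.762 to 1.02), 0.635-fold (0.410 to 0.968) and 0.535-fold (0.370 to 0.763) over all spots, and 1.25-fold (1.01 to 1.55), 0.448-fold (0.265 to 0.75) and 0.856-fold (0.509 to 1.46) inside.

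Ranking by another T cell measure picked mostly other spots. The top 10% by *Trac*, *Trbc1* and *Trbc2* shared 21 of 76 spots with the T cell rich ones, and held 2.18 times (1.99 to 2.37) the CPM of the 4 rule genes of the bottom 30% by the same sum. Among the 76 spots the T cell identity list had a rank correlation of 0.564 with the cytotoxic list, 0.373 with the regulatory list and 0.0994 with the B cell list, and B cell and plasma cell lists 0.554. Over all 754 collagen-rich spots, whose range the choice of spots does not narrow, these correlations were 0.693, 0.561, 0.296 and 0.486. These describe spots of 1 library with sparse counts, and *Cd8a* and *Cd8b1* are on both the first lists.

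Section 2 held little T cell RNA. Over spots with at least 20000 UMIs the 4 rule genes stood at 151 CPM in section 1 and 6.40 CPM in section 2, *Trac* at 57.1 and 3.44 CPM, *Cd8a* at 19.5 and 2.37 CPM, *Cxcl9* at 240.5 and 1.41 CPM and *Cd74* at 11666 and 247 CPM. *Arg1* stood at 155 and 423 CPM, and the epithelial genes *Epcam* and *Krt8* at 6.22 and 1446 CPM and 20.5 and 1250.2 CPM. With 1 section each, tumor, mouse and library cannot be told apart. The sections share 3096 barcodes, which are array positions and not cells.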

How the data were processed

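Spatial gene expression was measured in 2 sections, 1 per sample. The deposited files hold UMI counts per probe-covered gene and spot, made by the authors with Space Ranger 2.1.1 on mm10, per the submitters' processing notes, and were used as deposited. Spots were chosen and counts summed with pandas 2.3.3 and numpy 2.4.6, intervals came from scipy 1.17.1 and plots from matplotlib 3.10.9, all under Python 3.11.15. Counts were pooled over spots and divided by pooled UMIs, and folds carry exact conditional 95% intervals, checked on simulated data. Gene counts use genes with at least 10 CPM over the collagen-rich spots. Named genes were those of 33 lists and, outside them, the 10 largest and 10 smallest folds. The members, lists and comparisons were chosen with earlier results of these data known. Comparison spots, thresholds, scaling, thinning and filters were varied. Spots are regions, so no doublet calling was done. With 1 section per tumor no test was possible, and section 2 entered no comparison of spots because none of its spots met the rule.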

Additional observations from a re-analysis of the deposited data

How the results depend on the processing

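The T cell identity list stayed between 1.38-fold and 2.03-fold and the cytotoxic list between 1.34-fold and 2.06-fold under the alternatives run, while MHC class II ranged from 1.04-fold to 1.95-fold and B cell genes from 1.33-fold to 2.61-fold. No paired analysis was possible because only 1 section holds the comparison and no test was made. Against the bottom 30% of spots, B cell genes were 2.61-fold and macrophage genes 1.10-fold. Against all other collagen-rich spots 61 genes were at least 1.5-fold higher and 104 lower, and the T cell identity, cytotoxic, MHC class II, B cell and macrophage lists were 1.38-fold, 1.34-fold, 1.26-fold, 1.66-fold and 1.04-fold. Against comparison spots within 3 steps of a T cell rich spot 196 genes were lower, these lists were 1.65-fold, 1.59-fold, 1.42-fold, 1.56-fold and 1.06-fold, and plasma cell genes 0.854-fold. Weighted to depth, 458 genes were higher, cytotoxic genes 1.83-fold, MHC class II 1.53-fold and neural genes 1.08-fold. With the top 5% as T cell rich, MHC class II was 1.77-fold and macrophage genes 1.10-fold, and with the top 20% MHC class II was 1.79-fold. With a collagen minimum of 20000 CPM, MHC class II, macrophage, plasma cell and neural genes were 1.65-fold, 1.17-fold, 0.941-fold and 1.0-fold. As a mean of spot CPM, MHC class II was 1.91-fold and fibroblast genes 1.01-fold, and with median ratio scaling MHC class II was 1.80-fold and macrophage genes 1.12-fold. Thinned to 20000 UMIs, 547 genes were higher and 573 lower, and T cell identity, MHC class II, macrophage and fibroblast lists were 2.03-fold, 1.91-fold, 1.12-fold and 1.0-fold. MHC class II was 1.95-fold without the spots richest in plasma cell genes and 1.77-fold without those richest in neural genes. Higher and lower genes numbered 483 and 565 with a 5 CPM filter, 165 and 197 with 20 CPM, 1948 and 2444 with none, and 74 and 116 at a 2-fold limit, as the filter and limit set how many genes can be counted.

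Further alternatives were chosen after seeing the data. With distances matched 142 genes were lower, and T cell identity, cytotoxic, MHC class II, B cell, macrophage and neural lists were 1.49-fold, 1.46-fold, 1.22-fold, 1.81-fold, 1.07-fold and 1.11-fold. At least 7 steps inside 495 genes were higher, these 6 lists were 1.49-fold, 1.43-fold, 1.04-fold, 1.33-fold, 1.10-fold and 2.15-fold, and the type I interferon, plasma cell, lymphocyte entry vessel, glycolysis and IL34 and CSF1 lists 0.935-fold, 0.678-fold, 0.976-fold, 1.17-fold and 0.908-fold. Those inside spots of the 2 groups still differed in place, as given above. Ranked by receptor constant genes, MHC class II, B cell, macrophage, mast cell and TGF-beta lists were 1.72-fold, 2.44-fold, 1.10-fold, 1.02-fold and 0.994-fold. Without the 5 spots richest in B cell genes that list was 1.62-fold. Except for the filters and the limit, the cause of these shifts was not tested. Genes under 10 CPM, *Ifng* and most cytokines among them, could not be compared at this depth.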
